A study of Mus musculus with 1152 samples.

Results

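The 10 genes described here carry out MHC class I presentation in the mouse: B2m, H2-D1, H2-K1, H2-T23, Tap1, Tap2, Tapbp, Psmb8, Psmb9 and Nlrc5. They were taken by name from the 48587 genes of a count table of single microglia, the resident macrophages of the brain. All 10 were present, and all 10 passed the filter on low counts that left 17358 genes for testing. The cells had been sorted 1 to a well after perfusion and a Percoll gradient, with antibodies to CD11b, CD45, Ly6C, Ly6G and CD206, and their libraries were made with Smart-seq2, which covers whole transcripts and uses no molecular identifiers.

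The cells fell into 6 groups by genotype and brain region. The 5xFAD groups were cortex (183 kept cells from 4 replicates), hippocampus (154 cells, 3 replicates) and cerebellum (193 cells, 3 replicates), and the wild-type (WT) groups were cortex (167 cells), hippocampus (182 cells) and cerebellum (162 cells), with 4 replicates each. 5xFAD mice carry mutant human transgenes of familial Alzheimer's disease driven by the neuronal Thy1 promoter and form amyloid plaques. The labels give the strain C57BL/6J for both genotypes, number the replicates within each genotype and region, and give no age or sex. The series design says that regions came from the same mice. Replicates are taken as mice here, and whether the same number marks the same mouse in different regions is not stated. Adding the counts of all kept cells of a replicate in a region made 22 sums, each holding 35 to 72 cells and 5696201 to 26669220 reads.

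Each group lay on a single plate, and this touches every result below. 5xFAD cortex had a plate in common with WT cerebellum, 5xFAD hippocampus with 5xFAD cerebellum, and WT cortex with WT hippocampus. No plate held both genotypes of a region, so the effects of genotype in a region and of plate cannot be told apart. Median depth per kept cell was 256681 reads in 5xFAD cortex, 328896 in 5xFAD hippocampus and 343580 in 5xFAD cerebellum, against 198492 in WT cortex, 235875 in WT hippocampus and 250051.5 in WT cerebellum. The labelled cell type was checked against 8 microglial markers such as P2ry12 and Tmem119: their summed level was 42500 to 64600 CPM (reads of the gene scaled to a common library size) in every sum, and none of the 8 was at 0 in any group. Wells with reads of at least 3 markers of another cell type numbered 36 of 1041, of which 19 lay in 5xFAD cerebellum and 12 in WT cerebellum.

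MHC class I molecules display short peptides from inside the cell at its surface, where CD8 T cells and some inhibitory receptors read them. The proteasome cuts cytosolic proteins into peptides, the TAP transporter carries these into the endoplasmic reticulum, tapasin helps to load them, and the finished complex of heavy chain, peptide and beta-2 microglobulin travels to the surface. Interferons raise the transcription of nearly the whole pathway, through interferon response elements, an NF-kappa B site and the SXY module, at which NLRC5 acts. Microglia express the pathway at a low level in the healthy brain, and it is among the programs raised in microglia near amyloid plaques.

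In the GRCm38 annotation, B2m lies on chromosome 2 from 122147686 to 122153083 on the plus strand, and Nlrc5 on chromosome 8 from 94434356 to 94527272 on the plus strand. The other 8 genes lie in or beside the major histocompatibility complex on chromosome 17. Tapbp spans 33915899 to 33929292 and H2-K1, on the minus strand, 33996017 to 34000347. Psmb9 (34181987 to 34187764, minus strand), Tap1 (34187553 to 34197225), Psmb8 (34197721 to 34201454) and Tap2 (34203527 to 34216321) follow each other, then H2-D1 (35262730 to 35267499) and H2-T23 (36029773 to 36032855, minus strand).

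Class I genes are known targets of shared promoter elements, and promoter stretches are shown for B2m and the 3 heavy chains, which were chosen after their values had been seen. RefSeq (GRCm38.p6) promoter windows were given for 8 of the 10 members, and the 250 bases before each start were searched on both strands for 4 motifs: the interferon-stimulated response element (GAAA and again GAAA after 2 bases of any kind), a kappa B element (GGGA, 4 bases of any kind and CC), an X2-like element TGACGC and the Y box CCAAT. The windows of B2m, at chr2:122147437-122147686 on the plus strand, and of H2-K1, at chr17:34000348-34000597 on the minus strand, are shown whole with motif matches in capitals, as the light chain and a classical heavy chain of the same complex.
B2m: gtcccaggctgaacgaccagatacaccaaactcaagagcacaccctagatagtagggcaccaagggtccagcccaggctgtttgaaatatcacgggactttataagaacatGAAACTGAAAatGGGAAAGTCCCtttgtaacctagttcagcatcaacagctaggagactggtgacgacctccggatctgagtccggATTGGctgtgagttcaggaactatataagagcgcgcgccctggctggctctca
H2-K1: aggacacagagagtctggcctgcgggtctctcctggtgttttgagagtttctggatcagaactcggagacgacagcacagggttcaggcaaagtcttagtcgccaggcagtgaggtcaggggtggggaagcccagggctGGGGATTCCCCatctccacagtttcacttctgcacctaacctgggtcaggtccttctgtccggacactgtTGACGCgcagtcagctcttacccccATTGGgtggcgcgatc
In the B2m window the response element and the kappa B element stand side by side, and the Y box, here as its reverse complement ATTGG, lies nearer the start. The H2-K1 window holds the kappa B element, the X2-like element and the Y box in that order. It has no match to the exact letters searched for the response element, and looser forms of that element were not searched in any window.

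The classical heavy chain H2-D1 holds the kappa B element too, in a 30-base stretch at chr17:35262914-35262943 that differs from that of H2-K1, at chr17:34000438-34000467 on the minus strand, at 1 base, with 29 identical.
H2-D1, kappa B: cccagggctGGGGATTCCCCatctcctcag
H2-K1, kappa B: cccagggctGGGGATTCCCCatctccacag
The X2-like element and the Y box stand 30 bases end to end in both genes, at chr17:35262993-35263022 in H2-D1 and at chr17:34000359-34000388 in H2-K1, with 23 bases identical and 7 different.
H2-D1, X2-like element and Y box: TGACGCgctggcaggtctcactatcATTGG
H2-K1, X2-like element and Y box: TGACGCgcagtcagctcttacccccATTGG
The non-classical heavy chain H2-T23 has the response element in reverse orientation, at chr17:36032806-36032835 on the minus strand.
H2-T23, response element: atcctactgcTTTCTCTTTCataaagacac
Among 27025 promoters of the same length, 3.04% held the response element, which was found in 2 of the 8 members (B2m and H2-T23), and 17.3% held the kappa B element, found in B2m, H2-D1 and H2-K1. The X2-like element was in 6.14% of promoters and in H2-D1 and H2-K1, and the Y box in 34.5% of promoters and in 7 of the 8 members (not Psmb8). Response element and kappa B element together were in 0.392% of promoters and, among the members, in B2m. The matches describe letters in these windows and not binding. The starts used are those of RefSeq, and the stretches of H2-D1 and H2-T23 lie inside the gene spans given above. H2-K1 had a further window, at chr17:34000334-34000583 on the minus strand, which held another Y box.

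Per length of exon sequence, the only scale on which levels of different genes are compared here, the light chain stood above the heavy chains in every group. Length is that of all annotated exons of a gene together, and comparisons between genes depend on this choice. For Psmb8 it is 3381 bases, against 1628 in the transcript used further below, and for B2m it is 860 bases in both. In 5xFAD hippocampus B2m averaged 6578 ± 708 CPM per kilobase, H2-D1 1133 ± 44.6, H2-K1 605 ± 52.0 and H2-T23 66.4 ± 14.3 (SD, n = 3). In WT hippocampus the same genes averaged 2722 ± 351, 241 ± 59.3, 197 ± 54.5 and 37.6 ± 1.90 CPM per kilobase (SD, n = 4). Of the transporter and protease genes, Tap1 stood at 35.3 ± 18.1 CPM per kilobase in 5xFAD hippocampus and 17.3 ± 6.69 in WT hippocampus. Psmb8 stood at 59.4 ± 7.15 in 5xFAD hippocampus and 41.5 ± 8.06 in WT hippocampus. Nlrc5 averaged 2.37 ± 1.09 CPM per kilobase in 5xFAD hippocampus and 0.601 ± 0.537 in WT hippocampus.

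In cortex and hippocampus the light chain and the classical heavy chains were higher in 5xFAD than in WT microglia, and in cerebellum no member passed the test in either direction. The differences were largest for H2-D1 in hippocampus. All levels of single genes that follow are CPM of the summed cells, scaled by TMM library size, with replicates in label order.

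B2m, the light chain shared by all classical and most non-classical class I molecules, had 6283, 5622 and 5067 CPM in 5xFAD hippocampus, against 2743, 2100, 2116 and 2404 CPM in WT hippocampus. In cortex B2m had 4245, 4547, 4995 and 3815 CPM in 5xFAD mice, against 2486, 2619, 2557 and 2480 CPM in WT mice. Every 5xFAD value stood above every WT value in both regions, with the 5xFAD hippocampus highest of all groups. In cerebellum B2m had 3770, 3022 and 2710 CPM in 5xFAD mice, against 3490, 4332, 4429 and 3703 CPM in WT mice. The first 5xFAD replicate lay within the WT range and the other 2 below it, so that the mean of the WT mice was the higher (3167 ± 545 CPM in 5xFAD and 3988 ± 463 in WT, SD).

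H2-D1, a classical heavy chain that binds peptide for CD8 T cells, had 2797, 3024 and 2946 CPM in 5xFAD hippocampus, against 765, 470, 742 and 512 CPM in WT hippocampus. Cortex held 1562, 2254, 2516 and 1925 CPM of H2-D1 in 5xFAD mice, against 742, 742, 699 and 784 CPM in WT mice. No values overlapped in either region, and the lowest 5xFAD cortex value was above the highest value of any WT cortex or hippocampus. Cerebellum held 2429, 2256 and 1554 CPM in 5xFAD mice, against 1719, 1931, 2081 and 1674 CPM in WT mice. There the groups overlapped, and all 7 cerebellar values lay above all 8 values of WT cortex and WT hippocampus.

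H2-K1, the other classical heavy chain of this strain, had 1644, 1944 and 1743 CPM in 5xFAD hippocampus, against 751, 395, 669 and 504 CPM in WT hippocampus. In cortex it had 848, 1498, 1840 and 1398 CPM in 5xFAD mice, against 472, 589, 539 and 588 CPM in WT mice. The first 5xFAD cortex replicate was the lowest of its group and still above all WT cortex values. In cerebellum H2-K1 had 1827, 1404 and 1215 CPM in 5xFAD mice, against 998, 1501, 1549 and 1092 CPM in WT mice, and the groups overlapped.

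H2-T23, which encodes the non-classical heavy chain Qa-1, a ligand of CD94/NKG2 receptors, had a different order. In cortex it had 196, 289, 255 and 208 CPM in 5xFAD mice, against 147, 129, 81.7 and 108 CPM in WT mice. In hippocampus it had 204, 226 and 146 CPM in 5xFAD mice, against 113, 106.4, 102 and 113 CPM in WT mice. Both regions had no overlap between the genotypes. In cerebellum it had 173, 175 and 177 CPM in 5xFAD mice, against 292, 258, 245 and 262 CPM in WT mice, so that every 5xFAD value was below every WT value. WT cerebellum had the highest mean of the 6 groups for H2-T23 (264 ± 19.7 CPM), with values that overlapped those of 5xFAD cortex.

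By mean level, H2-D1 and H2-K1 ran in the order 5xFAD hippocampus, 5xFAD cerebellum, 5xFAD cortex and WT cerebellum, with WT cortex and WT hippocampus last. Neighbours in that order overlapped, except WT cerebellum, which lay apart from the last 2 groups for both genes, and 5xFAD hippocampus, which lay apart from the next group for H2-D1. For B2m the order was 5xFAD hippocampus, 5xFAD cortex, WT cerebellum, 5xFAD cerebellum, WT cortex and WT hippocampus, where 5xFAD hippocampus lay apart from the next group and 5xFAD cerebellum from WT cortex. The lowest B2m value of 5xFAD cerebellum (2710 CPM) was below the highest of WT hippocampus (2743 CPM).

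**Figure D1:**
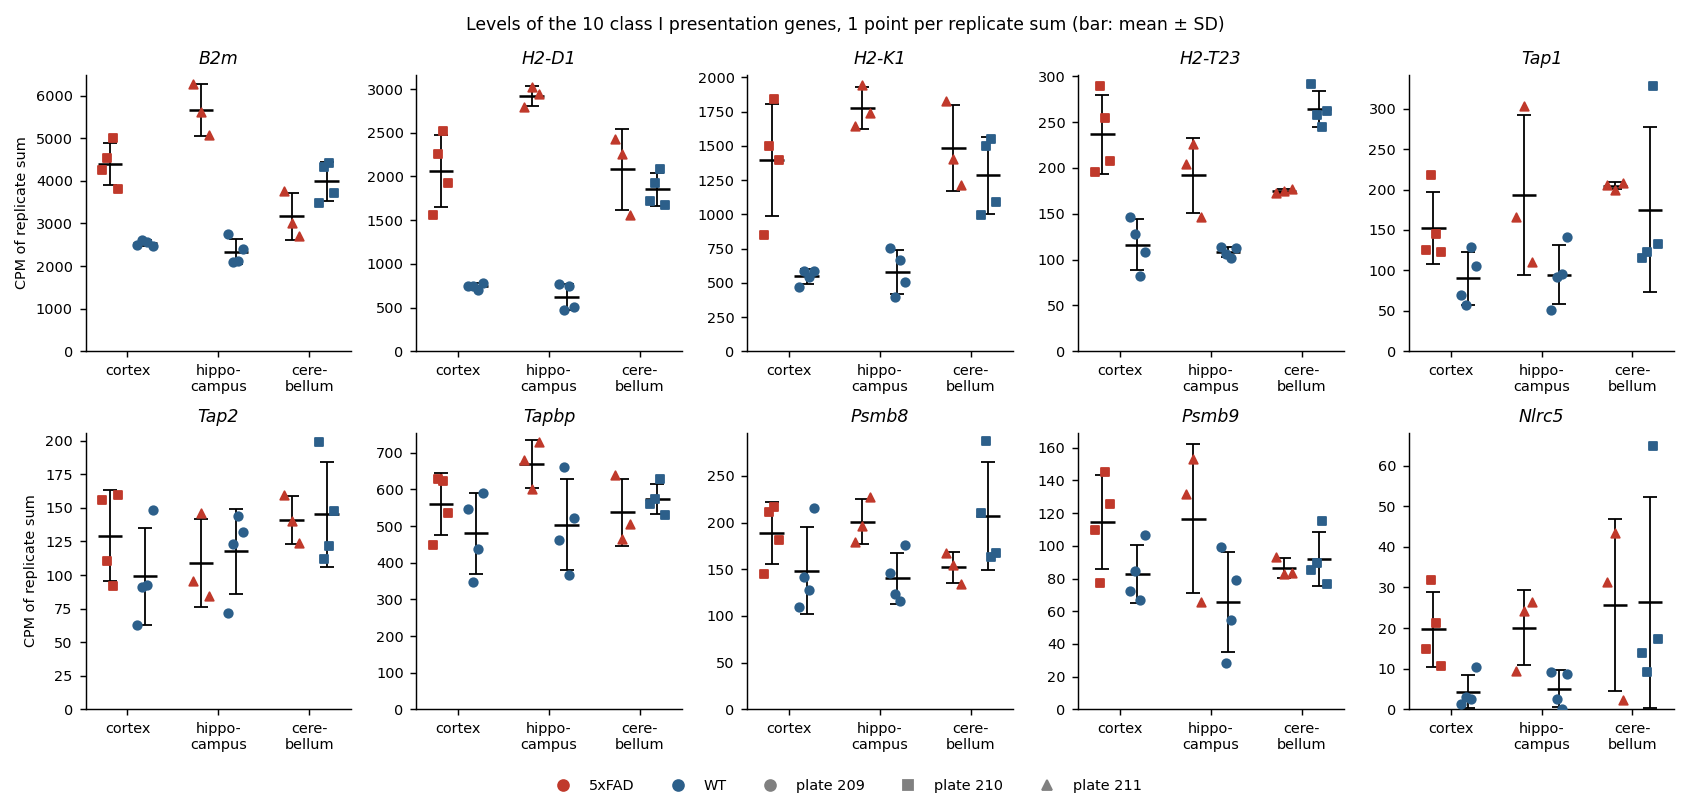
Level of each of the 10 members in CPM of summed cells, by group; points are replicates, with their shape giving the plate, bars mark the mean and error bars the SD (n = 3 or 4), cut off at 0 where they reach below it. H2-D1 and H2-K1 are lower in every replicate of WT cortex and WT hippocampus than in any replicate of the other 4 groups, with H2-D1 at 622 ± 153 CPM in WT hippocampus.

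In the edgeR quasi-likelihood test with Benjamini-Hochberg adjustment over all 17358 genes, 4 of 10 members rose in 5xFAD cortex and 3 of 10 in 5xFAD hippocampus, at adjusted p under 0.05. Over all genes, 0.242% rose in 5xFAD cortex and 0.76% in 5xFAD hippocampus. The median log2 fold change of the members was 0.78 in cortex and 0.93 in hippocampus, against -0.09 and 0.10 over all genes. In hippocampus the log2 fold change was 1.27 ± 0.12 (SE) for B2m, 2.23 ± 0.18 for H2-D1 and 1.62 ± 0.23 for H2-K1, with adjusted p of 1.2e-06, 1.5e-07 and 0.00024. In cortex it was 0.80 ± 0.11 for B2m, 1.48 ± 0.17 for H2-D1, 1.35 ± 0.22 for H2-K1 and 1.02 ± 0.19 for H2-T23, with adjusted p of 0.00073, 4.3e-05, 0.0031 and 0.016. The summed microglial markers were lower in 5xFAD, at 44100 to 47800 CPM in 5xFAD hippocampus against 59300 to 64600 CPM in WT hippocampus, and 53300 to 54700 CPM in 5xFAD cortex against 56700 to 61100 CPM in WT cortex, and their part in the result was not tested.

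The hippocampal calls of B2m, H2-D1 and H2-K1 were made by DESeq2 and limma-voom as well. With every cell weighted alike, those of B2m and H2-K1 ended (log2 fold changes 1.10 and 1.37, adjusted p 0.0613 and 0.0654, limma). The 4 cortical calls were made by DESeq2 and ended under limma-voom, where the log2 fold changes were 0.75, 1.44, 1.28 and 1.04 and the adjusted p 0.439 for B2m, 0.263 for H2-D1, 0.237 for H2-K1 and 0.0539 for H2-T23. H2-T23 in cortex also lost its call without 5xFAD cortex replicate 2 or 3 or WT cortex replicate 3 or 4 (highest adjusted p 0.0793, edgeR). Over the 13 alternatives other than leaving out a replicate, B2m passed in cortex under 10, H2-D1 under 11, H2-K1 under 10 and H2-T23 under 7. In hippocampus H2-T23 missed the threshold at a log2 fold change of 0.82 ± 0.21 (adjusted p 0.058, edgeR) and passed it under DESeq2 (0.0013) and limma-voom (0.039), with a range of 0.00132 to 0.448 over the 13 alternatives.

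Over all genes tested, every 5xFAD level stood above every WT level for 3.06% of genes in cortex, 7.21% in hippocampus and 3.93% in cerebellum. Among the members this held for 5 in cortex (B2m, H2-D1, H2-K1, H2-T23 and Nlrc5), for 6 in hippocampus (the same 5 and Psmb8) and for 0 in cerebellum.

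In cerebellum 0 of 10 members passed the edgeR test, where 0.0288% of all genes rose. DESeq2 called 0 members and 324 of all genes, and limma-voom 0 members and 66 genes. At an unadjusted p under 0.05 in edgeR, where 8.92% of all genes stood, there were 2 members, B2m at a log2 fold change of -0.33 ± 0.12 and H2-T23 at -0.59 ± 0.21 (adjusted p 0.55 for each). H2-D1 stood at 0.17 ± 0.17 and H2-K1 at 0.21 ± 0.23, and the median over the members was -0.06 against -0.01 over all genes. Border-macrophage markers reached 268 to 543 summed CPM in 5xFAD cerebellum and 8.24 to 668 in WT cerebellum, and at most 323 in any sum of the other groups, and neutrophil markers reached 14700 in a 5xFAD cerebellum sum. Wells with markers of another cell type had more H2-D1 than the other wells of the same region, 3183 against 1875 CPM in 5xFAD cerebellum and 3174 against 1833 CPM in WT cerebellum. Without those wells the count of members passing in cerebellum was also 0, and the counts were 4 in cortex and 4 in hippocampus. The shares of all genes called without those wells are not given here.

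The genotype difference itself differed between regions. In the test of that difference in the same edgeR fit, 3 of 10 members had a larger 5xFAD effect in hippocampus than in cerebellum, where 0.248% of all genes did, and 3 of 10 a larger effect in cortex than in cerebellum, where 0.0576% did. The hippocampal effect exceeded the cerebellar effect by a log2 value of 1.61 ± 0.17 for B2m (adjusted p 4e-05), 2.06 ± 0.25 for H2-D1 (0.00013) and 1.41 ± 0.29 for H2-T23 (0.036). The cortical effect exceeded it by 1.13 ± 0.17 for B2m (0.0029), 1.31 ± 0.24 for H2-D1 (0.027) and 1.62 ± 0.29 for H2-T23 (0.020). H2-K1 missed the threshold in both, at 1.41 ± 0.32 (0.071) and 1.15 ± 0.31 (0.31).

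Between hippocampus and cortex the 5xFAD effects of 0 members differed by the edgeR test, where 0.0403% of all genes had a larger effect in hippocampus. At an unadjusted p under 0.05 there were 2 members (B2m and H2-D1) and 11.4% of all genes. DESeq2 called 1 member and 363 of all genes, and limma-voom 0 members and 40 genes. The count for cortex against cerebellum fell to 1 without 5xFAD cortex replicate 2 or 3 or 5xFAD cerebellum replicate 2 or 3, and it was 1 under limma-voom. Both counts against cerebellum were 0 when every cell was weighted alike.

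**Figure D2:**
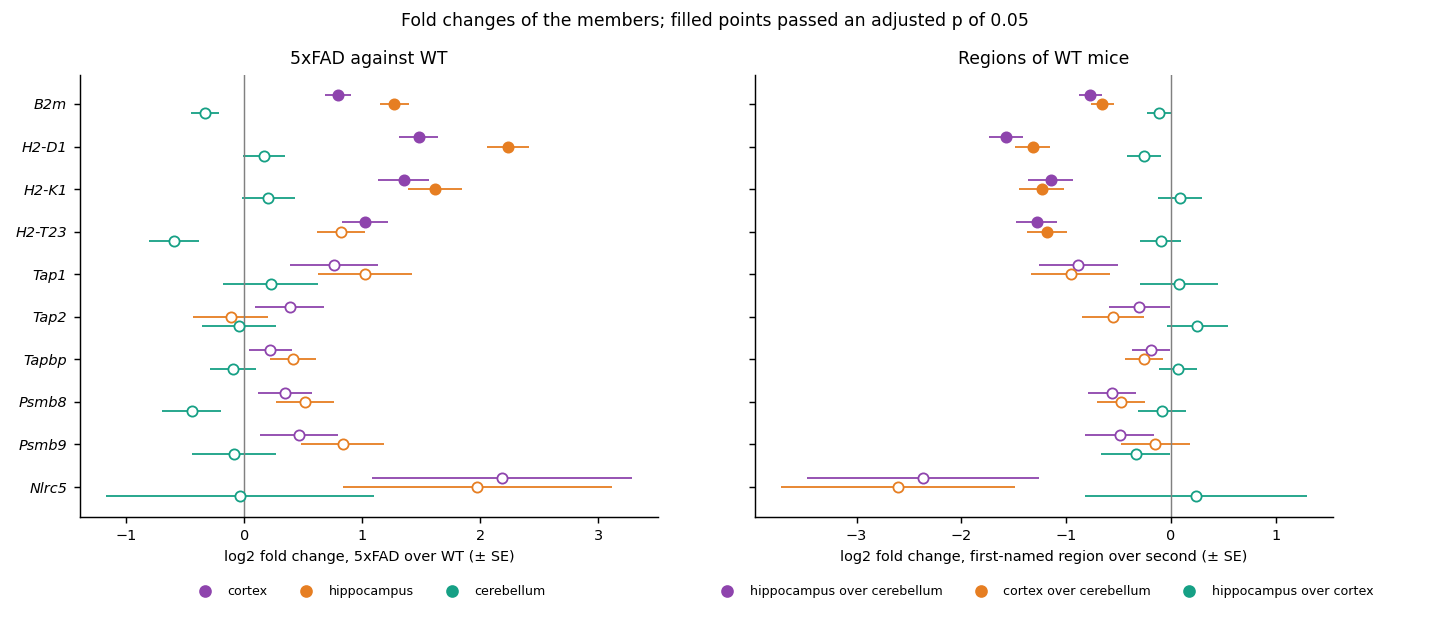
Log2 fold change of each member, 5xFAD over WT, in cortex, hippocampus and cerebellum, from the edgeR fit (left), and between regions of WT mice (right), with SE as error bars; filled points passed an adjusted p of 0.05. No cerebellar genotype point passed, and they run from -0.59 for H2-T23 to 0.225 for Tap1. The hippocampal H2-D1 point is highest among those that passed, at 2.23.

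Set region against region within a genotype, WT cerebellum stood above WT cortex and WT hippocampus. In WT hippocampus 4 of 10 members were lower than in WT cerebellum, where 0.19% of all genes were, with log2 fold changes of -0.77 ± 0.11 for B2m, -1.57 ± 0.17 for H2-D1, -1.15 ± 0.21 for H2-K1 and -1.28 ± 0.19 for H2-T23 (adjusted p 0.001, 9.8e-06, 0.013 and 0.0017, edgeR). The same 4 were lower in WT cortex than in WT cerebellum, where 0.15% of all genes were, by -0.65 ± 0.11, -1.32 ± 0.16, -1.23 ± 0.21 and -1.18 ± 0.19 (0.0071, 0.00021, 0.0076 and 0.0046). Limma-voom called 1 member in each of these comparisons and DESeq2 all 4. Markers of cell type differed between the same groups: 4 of 8 microglial markers were higher in WT hippocampus and 3 of 8 in WT cortex than in WT cerebellum. Of all 17358 genes, 32 were higher in WT hippocampus and 22 in WT cortex. None of the 6 border-macrophage and 4 monocyte markers tested passed, and all stood lower than in WT cerebellum, with median log2 fold changes of -2.73 and -5.44 in WT hippocampus and -3.82 and -5.26 in WT cortex. Without the wells of other cell types the count was 4 in both comparisons, again given without the shares of all genes. Among cells with none of the plaque-associated genes described below, the median H2-D1 level was 330 CPM in WT hippocampus and 540 CPM in WT cortex, against 1160 CPM in WT cerebellum. Between WT hippocampus and WT cortex, which shared a plate, 0 members and 0% of all genes passed the edgeR test. At an unadjusted p under 0.05 there were 0 members and 10.5% of all genes. DESeq2 called 0 members and 301 of all genes, and limma-voom 0 members and 5 genes.

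Among the 5xFAD regions the members differed less. B2m was higher in 5xFAD hippocampus than in 5xFAD cerebellum, which lay on the same plate, by a log2 value of 0.84 ± 0.13 (adjusted p 0.0041, edgeR), the single member of 10 that passed, where 0.207% of all genes did. That call ended without 5xFAD cerebellum replicate 3. H2-D1 differed there by 0.49 ± 0.19 (adjusted p 0.63) and H2-K1 by 0.26 ± 0.24 (0.90). In 5xFAD cortex against 5xFAD cerebellum 0 members passed and 0.0518% of all genes were higher. There 2 members and 8.19% of all genes had an unadjusted p under 0.05, DESeq2 called 1 member and 257 of all genes, and limma-voom 1 member and 100 genes. In 5xFAD hippocampus against 5xFAD cortex 0 members passed and 0.0288% of all genes were higher, with 2 members and 8.32% of all genes at an unadjusted p under 0.05. DESeq2 called 0 members and 244 of all genes there, and limma-voom 0 members and 38 genes.

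The 2 groups with the lowest mean levels of B2m, H2-D1 and H2-K1, WT cortex and WT hippocampus, were those of a single plate. On the plate that held 5xFAD cortex and WT cerebellum, a comparison was added after the data had been seen. It found 0 members passing, where 0.225% of all genes were higher in 5xFAD cortex. An unadjusted p under 0.05 was held by 0 members and by 1869 of all 17358 genes. With so few members, that count of 0 does not set them apart from all genes. B2m differed there by a log2 value of 0.14 ± 0.11, H2-D1 by 0.16 ± 0.16, H2-K1 by 0.12 ± 0.21 and H2-T23 by -0.16 ± 0.19. That contrast changes genotype and region together. Depth was lowest in WT cortex. When each cell was thinned to 50000 reads, which kept 941 cells and left out 100, the fit called 4 members in cortex and 4 in hippocampus. The shares of all genes called in that fit are not given here, so these counts stand without that background.

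The transporter, loading and immunoproteasome genes and Nlrc5 passed the test in none of these comparisons. Tap1, a subunit of the peptide transporter, had 166, 303 and 110 CPM in 5xFAD hippocampus, against 51.4, 91.8, 95.2 and 141 CPM in WT hippocampus. Its log2 fold changes were 1.02 ± 0.40 in hippocampus and 0.76 ± 0.37 in cortex (adjusted p 0.33 and 0.43, edgeR), with overlap in both regions. In WT cerebellum 3 Tap1 values lay between 116 and 133 CPM and that of replicate 3 was 328.

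Tap2, the partner subunit, averaged 109 ± 32.9 CPM in 5xFAD hippocampus and 118 ± 31.7 in WT hippocampus, with a log2 fold change of -0.12 ± 0.31. In cortex it averaged 129 ± 33.5 CPM in 5xFAD mice and 99.0 ± 35.8 in WT mice (0.39 ± 0.29). The groups overlapped in every region.

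Tapbp encodes tapasin, which holds empty class I molecules at the transporter. It averaged 670 ± 65.4 CPM in 5xFAD hippocampus and 504 ± 123 in WT hippocampus (log2 fold change 0.41 ± 0.19, adjusted p 0.38). In cortex Tapbp had 559 ± 85 CPM in 5xFAD mice and 480 ± 110 in WT mice (0.22 ± 0.18, adjusted p 0.74).

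Psmb8 and Psmb9 encode catalytic subunits of the immunoproteasome, in which they replace Psmb5 and Psmb6. Psmb8 had 180, 196 and 227 CPM in 5xFAD hippocampus, against 146, 123, 116 and 176 CPM in WT hippocampus, without overlap, and its log2 fold change of 0.52 ± 0.25 missed the threshold (adjusted p 0.38). Psmb9 had 132, 153 and 65.4 CPM there, against 99.5, 28.6, 54.9 and 79.0 CPM in WT hippocampus, with overlap (0.83 ± 0.35, adjusted p 0.34). In cortex their log2 fold changes were 0.34 ± 0.23 and 0.47 ± 0.33, with adjusted p of 0.62 and 0.65.

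Nlrc5, the transactivator of class I genes, was scarce. It had 14.8, 31.9, 21.3 and 10.7 CPM in 5xFAD cortex, against 1.21, 3.13, 2.58 and 10.3 CPM in WT cortex. In hippocampus it had 9.45, 24.3 and 26.5 CPM in 5xFAD mice, against 9.11, 2.51, 0 and 8.79 CPM in WT mice. The genotypes did not overlap in either region, by a narrow margin at the nearest values. With 848 reads in all 5xFAD cortex cells and 144 in all WT cortex cells, the log2 fold changes of 2.18 ± 1.10 and 1.98 ± 1.14 did not pass (adjusted p 0.44 and 0.47).

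Transcripts of the class I heavy chains share part of their sequence with other genes. Of the 50-base words of the H2-D1 transcript, 14.3% also occur in transcripts of other genes, most often H2-Q1, H2-Q7 and H2-Q6. For H2-K1 the share was 8.79%, for H2-T23 15.0%, and for B2m 0%. How reads with several matches were counted is not given in the sources used here, so the division of reads among heavy chains is uncertain. Tap1 and Psmb9 share 212 exon bases on opposite strands at their common promoter, and exons of Tapbp, Tap2 and Psmb8 overlap antisense genes over 24.9%, 14.1% and 14.7% of their length. Smart-seq2 does not mark strand, so reads from those stretches cannot be told apart. The antisense genes had at most 298 reads in all sums together. Psmb7, a constitutive subunit described below, shares 405 exon bases (11.8%) with Nek6 on the opposite strand. Nek6 had 61213 reads, against 12942 of Psmb7.

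Shares of cells with a read showed where the heavy chain difference lay among the cells. For this, cells were thinned to 50000 reads, which left 172, 135 and 187 cells in 5xFAD cortex, hippocampus and cerebellum, against 133, 177 and 137 cells in WT cortex, hippocampus and cerebellum. A sum over cells cannot tell fewer cells of a kind and less RNA per cell apart, and the shares and the levels within cells with reads are therefore given side by side.

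H2-D1 had reads in 95.3%, 98.0% and 100% of cells of the 5xFAD hippocampus replicates, against 70.5%, 72.1%, 80.4% and 75% of cells in WT hippocampus. In cortex the shares were 97.5%, 100%, 97.8% and 100% in 5xFAD mice, against 88.5%, 88.6%, 91.4% and 81.1% in WT mice. Neither pair of groups overlapped. In cerebellum they averaged 94.8% ± 3.08 in 5xFAD mice and 92.7% ± 5.09 in WT mice (SD). Among cells with reads of H2-D1 the mean level was also higher, 2621 CPM in 5xFAD hippocampus and 804 CPM in WT hippocampus, and 2062 CPM in 5xFAD cortex and 886 CPM in WT cortex.

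H2-K1 had reads in 93.7% ± 5.03 of cells in 5xFAD hippocampus and 70.6% ± 4.53 in WT hippocampus. In cortex its shares were 87.5%, 97.7%, 95.6% and 93.2% in 5xFAD mice, against 80.8%, 88.6%, 77.1% and 75.7% in WT mice, with overlap at 1 value. H2-T23 had reads in 85.9% ± 4.83 of cells in 5xFAD cortex and 69.2% ± 3.88 in WT cortex, without overlap, and in 79.1% ± 6.66 of cells in 5xFAD hippocampus and 68.3% ± 6.04 in WT hippocampus, with overlap. Psmb8 had reads in 67.7% ± 7.41 of cells in 5xFAD hippocampus and 49.8% ± 7.76 in WT hippocampus, without overlap.

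Every 5xFAD share stood above every WT share for 2 of 10 members in cortex (H2-D1 and H2-T23), for 3 in hippocampus (H2-D1, H2-K1 and Psmb8) and for 0 in cerebellum. Over all genes tested this held for 3.32% in cortex, 6.56% in hippocampus and 3.92% in cerebellum. The cortical count was 5 with 20000 reads a cell, 4 without thinning and 4 when 3 reads were required. The share over all genes was not computed for these settings, so the counts cannot be set against it. Without thinning, cells of 5xFAD cortex were also deeper than those of WT cortex. B2m had a read in every thinned cell of 5 groups and in 136 of 137 cells of WT cerebellum, so its share carries no difference. In the 12 blank wells B2m had 25 reads, in 9 wells with at most 5 each, H2-D1 had 2 reads, and the other 8 members had 0.

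Tap1 had reads in 37.0% ± 13.1 of cells in 5xFAD hippocampus and 19.2% ± 9.49 in WT hippocampus, and in 34.2% ± 13.6 in 5xFAD cortex and 18.9% ± 7.24 in WT cortex, with overlap in both regions. Within cells that had reads the Tap1 level was 448 CPM in 5xFAD hippocampus and 539 CPM in WT hippocampus. Tap2, Psmb9 and Tapbp overlapped between genotypes in every region. Nlrc5 had reads in 11.6% ± 6.62 of cells in 5xFAD cortex and 3.70% ± 3.36 in WT cortex.

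**Figure D3:**
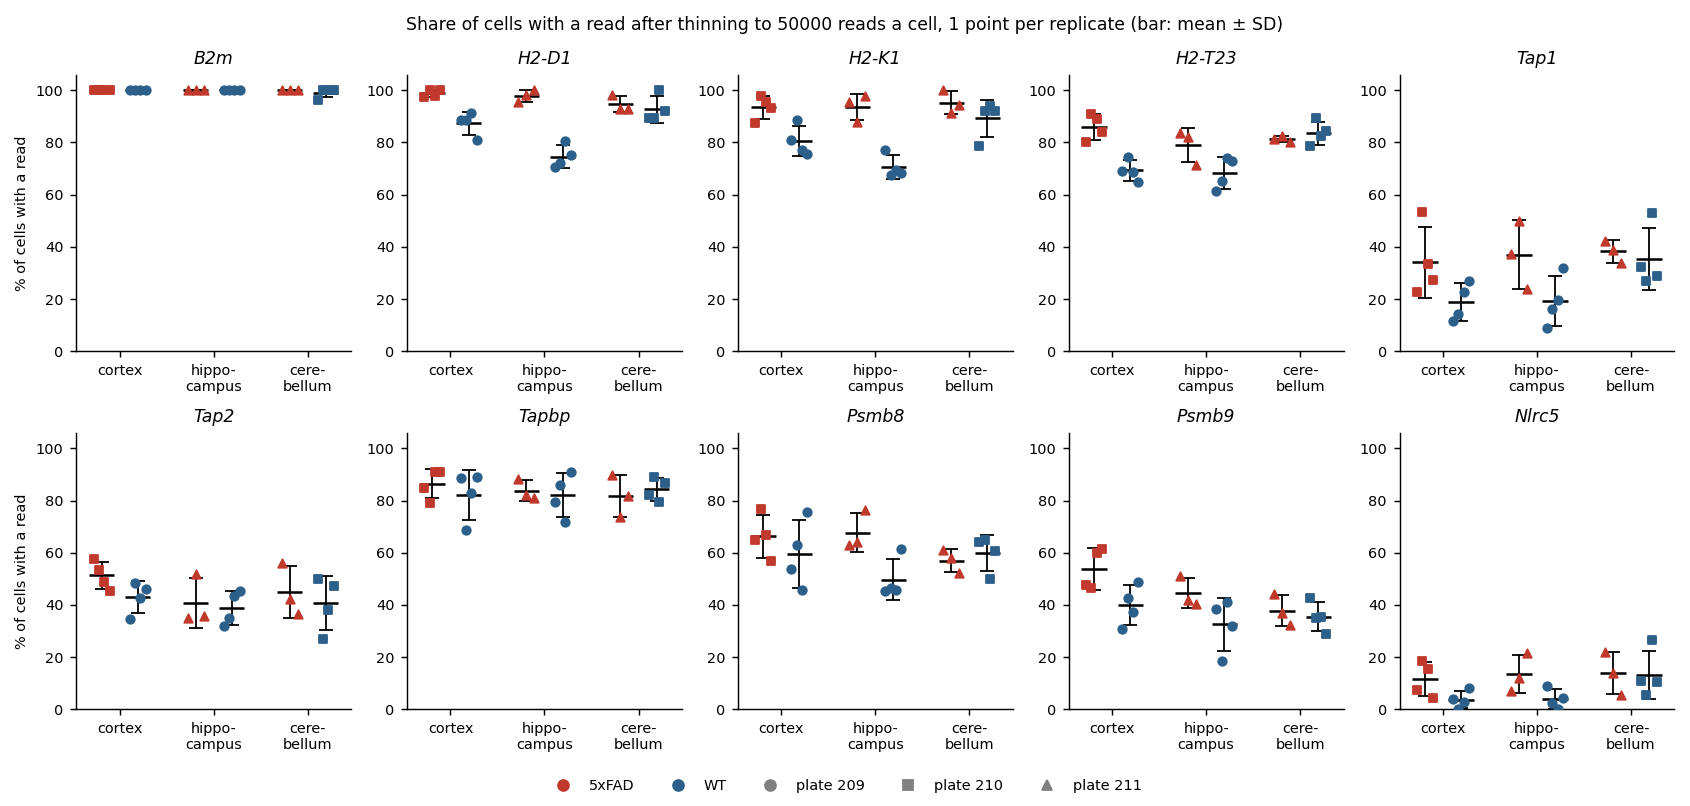
Share of cells with at least 1 read of each member after thinning to 50000 reads, by group, in percent; points are replicates and bars mark the mean, with SD as error bars. H2-D1 lies at 97.8% ± 2.33 in 5xFAD hippocampus and 74.5% ± 4.38 in WT hippocampus, and B2m is at or near 100% in every group.

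Across single thinned cells of hippocampus and cortex the low, middle and high H2-D1 values were all higher in 5xFAD mice. The 10th, 50th and 90th percentiles were 816, 2480 and 4732 CPM in 5xFAD hippocampus, against 0, 360 and 1608 CPM in WT hippocampus. In cortex they were 360, 1720 and 3960 CPM in 5xFAD mice, against 0, 540 and 1680 CPM in WT mice. In cerebellum they were 372, 1520 and 4224 CPM in 5xFAD mice, against 340, 1460 and 4048 CPM in WT mice. Cells with more B2m tended to have more H2-D1: the Spearman correlation across cells was 0.677 in 5xFAD cortex (172 cells) and 0.257 in WT cortex (133), 0.518 in 5xFAD hippocampus (135) and 0.358 in WT hippocampus (177), and 0.633 in 5xFAD cerebellum (187) and 0.435 in WT cerebellum (137). These values describe cells that share libraries and plates and carry no test.

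Within 5xFAD mice the cells were divided by a panel of 6 genes of the plaque-associated microglial state, Cst7, Lpl, Itgax, Clec7a, Axl and Gpnmb, none of them a member. A cell with reads of at least 2 was called panel-positive and a cell with none panel-negative. By this rule 63 cells were positive and 75 negative in 5xFAD cortex, 90 and 25 in 5xFAD hippocampus, and 60 and 79 in 5xFAD cerebellum, against 2 and 120 in WT cortex, 5 and 152 in WT hippocampus, and 28 and 71 in WT cerebellum. Axl and Clec7a are also expressed by border macrophages, of which wells were found in cerebellum.

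B2m rose in the panel-positive cells of 5xFAD cortex. Its log2 CPM in the 4 mice was 12.78, 12.43, 12.74 and 12.42 in panel-positive cells, against 11.55, 11.67, 11.69 and 11.17 in panel-negative cells of the same mice. The difference was 1.10 ± 0.11 (adjusted p 0.023, edgeR with mouse as a term), 1 of 10 members, where 0.231% of all genes rose, and the call ended when any of the 4 mice was left out. H2-D1 had 11.46, 11.45, 11.60 and 11.39 in panel-positive cells, against 9.62, 10.58, 10.71 and 10.18 in panel-negative cells, a difference of 1.23 ± 0.19 that missed the threshold (adjusted p 0.081). H2-K1 differed by 0.92 ± 0.15 (0.095), Tapbp by 0.88 ± 0.20 (0.27) and H2-T23 by 0.56 ± 0.22 (0.70).

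In 5xFAD hippocampus 0 members passed between panel-positive and panel-negative cells (0.0522% of all genes were higher, and 2 members and 5.53% of all genes had an unadjusted p under 0.05). B2m differed by 1.30 ± 0.25 and H2-D1 by 1.09 ± 0.23 (adjusted p 0.51 and 0.58, edgeR), where the median over all genes was 0.88. The 25 negative cells of 3 mice limit this comparison.

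Panel-negative cells of 5xFAD mice were then set against panel-negative cells of WT mice. In cortex H2-D1 had a log2 CPM of 9.62, 10.58, 10.71 and 10.18 in 5xFAD cells, against 9.54, 9.32, 9.52 and 9.29 in WT cells, and H2-K1 9.52, 9.85, 10.21 and 9.81, against 8.92, 9.19, 9.17 and 9.01. Values of neither gene overlapped. The differences were 0.91 ± 0.21 for H2-D1 and 0.80 ± 0.16 for H2-K1 (adjusted p 0.45 and 0.26, edgeR), and B2m stood at 0.24 ± 0.11. In hippocampus they were 1.5 ± 0.22, 1.45 ± 0.20 and 0.33 ± 0.25 (0.19, 0.18 and 0.87). With 0 members passing in either region (0.0306% of all genes were higher in cortex and 0% in hippocampus), 5 members in cortex and 3 in hippocampus had an unadjusted p under 0.05, against 4.57% and 11.1% of all genes.

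By single cells, the median H2-D1 level was 2520 CPM in panel-positive and 1000 CPM in panel-negative cells of 5xFAD cortex, 2700 and 1520 CPM in 5xFAD hippocampus, and 2500 and 980 CPM in 5xFAD cerebellum. In WT cerebellum it was 2110 and 1160 CPM. The panel-negative cells of WT cortex had a median of 540 CPM and those of WT hippocampus 330 CPM. Tap1 showed no such order in the forebrain: reads were present in 34.9% of panel-positive and 37.3% of panel-negative cells of 5xFAD cortex, and in 37.8% and 44.0% of those of 5xFAD hippocampus.

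**Figure D4:**
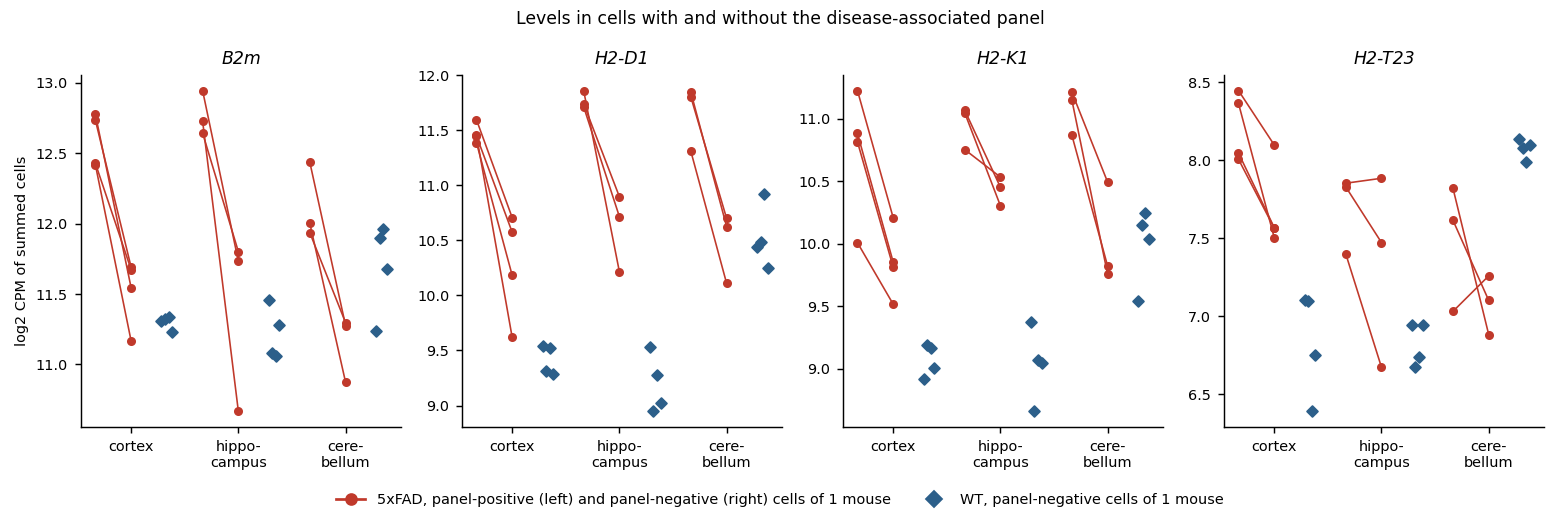
Level of B2m, H2-D1, H2-K1 and H2-T23 as log2 CPM of the cells summed per mouse and region; lines join panel-positive (left) and panel-negative (right) cells of a 5xFAD mouse, and diamonds are panel-negative cells of WT mice. The vertical axes do not start at 0. In 5xFAD cortex B2m lies between 12.42 and 12.78 in panel-positive cells and between 11.17 and 11.69 in panel-negative cells.

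Other genes of the pathway were taken from lists by function. Of 16 other class I heavy chains, such as H2-Q6 and H2-M3, 13 were tested and 0 passed in any genotype comparison. Their median log2 fold change was 0.69 in cortex and 1.09 in hippocampus. In cerebellum it was -0.17. None of the 6 other loading genes, such as Calr and Pdia3, passed, nor did any of Psmb10, Psme1, Psme2 and Psme3, the remaining immunoproteasome subunit and the PA28 activators, in the 3 genotype comparisons.

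The constitutive subunits Psmb5, Psmb6 and Psmb7 stood at log2 fold changes of 0.41 ± 0.52, -0.16 ± 0.26 and 0.11 ± 0.40 in cortex and 0.17 ± 0.56, 0.34 ± 0.28 and 0.25 ± 0.43 in hippocampus, and none passed. The log2 ratio of Psmb8 to Psmb5 reads was 3.78 ± 0.45 in 5xFAD hippocampus and 3.39 ± 0.51 in WT hippocampus, and 3.33 ± 0.51 in 5xFAD cortex and 3.42 ± 0.60 in WT cortex (SD), differences within the spread of replicates. That of Psmb9 to Psmb6 was -0.24 ± 0.19 in 5xFAD hippocampus and -0.83 ± 0.74 in WT hippocampus, and 0.15 ± 0.47 in 5xFAD cortex and -0.48 ± 0.50 in WT cortex, with overlap in both.

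Of 12 regulators of class I transcription, 0 passed in any genotype comparison. Irf1, an interferon-induced activator of class I promoters, had 208, 224 and 118 CPM in 5xFAD hippocampus, against 116, 93.2, 142 and 145 CPM in WT hippocampus (log2 fold change 0.56 ± 0.38). Rfx5, a subunit of the factor bound to the SXY module, stood at 0.69 ± 1.15 in hippocampus and -0.16 ± 1.08 in cortex.

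Among 7 interferon receptors and kinases, 1 changed, and it fell, in hippocampus, where 44 of all 17358 genes fell. Ifngr1, the ligand-binding chain of the interferon-gamma receptor, had 1031, 1180 and 1274 CPM in 5xFAD hippocampus, against 1842, 2042, 1865 and 1810 CPM in WT hippocampus. The log2 fold change was -0.70 ± 0.14 (adjusted p 0.013, edgeR), with no overlap. Its effect in hippocampus was also below that in cerebellum, by -1.01 ± 0.20 (0.029).

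Of 24 genes of the type I interferon response, 2 rose in 5xFAD hippocampus, where 0.76% of all genes rose, and 0 passed in cortex or cerebellum. Ifi27l2a, an interferon-induced gene, had 81.2, 117 and 66.8 CPM in 5xFAD hippocampus, against 0, 1.20, 3.595 and 8.95 CPM in WT hippocampus (log2 fold change 4.66 ± 0.86, adjusted p 0.0048, edgeR). Slfn5 had 1555 reads in the 5xFAD hippocampus cells together and 0 reads in those of WT hippocampus (adjusted p 0.0070). The log2 fold change was above 0 for 23 of the 24 in hippocampus and 22 in cortex, with medians of 1.79 and 1.29, and above 0 for 53.9% and 46.1% of all genes. In cerebellum it was above 0 for 6 of the 24, with a median of -0.46, and for 47.9% of all genes. Of 12 genes induced by interferon-gamma, 11 were tested and 0 passed, with medians of -0.04 in hippocampus, 0.30 in cortex and -0.19 in cerebellum.

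Among WT regions, 2 genes of the interferon list were lower in hippocampus than in cerebellum and 1 was lower in cortex than in cerebellum. Ifi27l2a and Slfn5 were lower in WT hippocampus than in WT cerebellum (adjusted p 0.017 and 0.019, edgeR), with Ifi27l2a at 0 to 8.95 CPM in WT hippocampus, against 28.6, 83.0, 103 and 59.5 CPM in WT cerebellum. Slfn2 was lower in WT cortex than in WT cerebellum by -2.16 ± 0.41 (0.015). Of a list of 4 immune receptors (Pirb, Lilrb4a, Pilra and Pilrb1), 1 rose in 5xFAD hippocampus, where 0.76% of all genes rose. Lilrb4a, an inhibitory receptor, had 237, 179 and 168 CPM in 5xFAD hippocampus, against 0.555, 0.873, 17.9 and 0 CPM in WT hippocampus (log2 fold change 5.32 ± 1.13, adjusted p 0.016, edgeR).

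**Figure D5:**
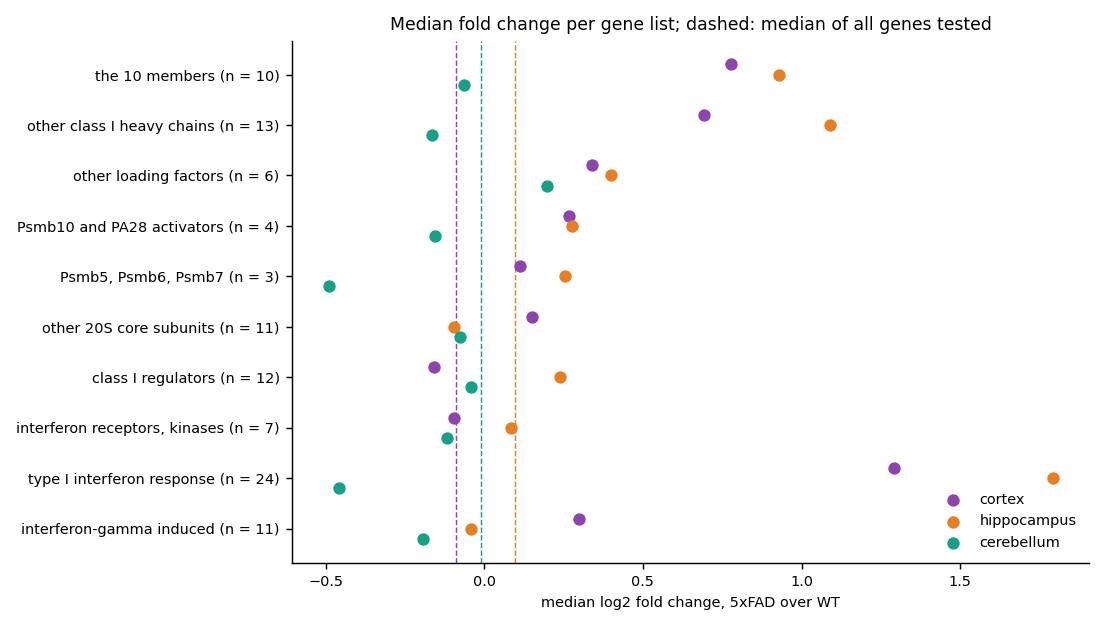
Median log2 fold change, 5xFAD over WT, of the tested genes of each pathway list, with 1 point each for cortex, hippocampus and cerebellum; dashed lines mark the median over all genes tested in each region. The type I interferon list has medians of 1.29 in cortex, 1.79 in hippocampus and -0.46 in cerebellum.

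Genes whose level across sums was most like the mean of the members were sought among 2648 well expressed genes (log2 CPM averaging 6 or more). That mean was taken over log2 CPM without scaling each member, so members with a wide spread weigh more in it. The scarce Nlrc5 had the widest, from -2.58 to 6.02, against 11.04 to 12.62 for B2m. The lists below may therefore follow Nlrc5 more than the other members. Over all 22 sums these were Lgals3bp (Pearson r = 0.902), Sdc3 (0.870), Cxcl16 (0.83), Ly6e (0.816), Bst2 (0.808), Gusb (0.807), Gm26917 (0.805) and Arsb (0.805). Within the 12 WT sums the first were Slfn2 (0.952), Lgals3bp (0.948) and Surf4 (0.916). Within the 10 5xFAD sums they were Prdx3 (0.920), Atp5b (0.885) and Fcgr1 (0.855), with the PA28 subunit Psme1 (0.840) among the first 8. The sums share plates and mice, and the values are a description of likeness, with no test.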

How the data were processed

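Smart-seq2 counts of 1152 wells, 12 of them blanks, on 3 plates were used. The authors deposited raw counts, whole-number reads per gene and well with no normalization. The submitters' processing notes name STAR 2.5.2b, featureCounts 1.5.1 and the build GRCm38; which annotation was used and how reads with several matches were treated is not stated there. In the deposited counts, 96 columns, those of plate columns 1 and 2, were sums over wells of the same plate row; the other wells were subtracted, which gave 0 negative values among 4673184. Cells with 500 or more genes, 10000 or more gene reads and no more than 20% mitochondrial reads were used, 1041 of 1140. Replicates are the numbered replicates of the labels, taken as mice.

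Counts were summed per replicate and region and tested with edgeR 4.0.16 in R 4.3.3 (TMM, filterByExpr, a quasi-likelihood test, 22 sums and 6 group terms in 1 model, Benjamini-Hochberg adjustment over 17358 genes, threshold 0.05). SE is the log2 fold change divided by the root of F. DESeq2 1.42.0, limma 3.58.1, other scalings and filters, thinning to 50000 reads, cells weighted alike, a replicate block and leaving out each replicate were alternatives. Panel-positive and panel-negative cells needed 5 cells of a class per mouse. Shares of cells were described without a test. Read counts of Smart-seq2 are not independent molecules. The fits were tested on simulated data.

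The 10 members are always named. Of each further list, up to 4 genes with the smallest p that passed in a comparison are named, with Psmb5, Psmb6, Psmb7, Irf1 and Rfx5 in any case; 1 further gene of that rule is not reported here. Genes most alike were the 8 with the highest Pearson correlation. Members and lists were chosen with earlier results of these data known. Gene positions come from the GRCm38 annotation and promoters from RefSeq (GRCm38.p6).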

Additional observations from a re-analysis of the deposited data

Results flagged for a closer look

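Tap1 in WT cerebellum replicate 3, at 328.5 CPM against 116 to 133 CPM in the other 3 replicates, lay far from the rest of its group. It was 1 of 40 groups of 4 values examined this way, and chance flags about 1 in 20 groups.

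The effect of genotype differed between regions by its own test for 3 members. Between hippocampus and cerebellum the log2 difference of the effects was 1.61 for B2m, 2.06 for H2-D1 and 1.41 for H2-T23. Between cortex and cerebellum it was 1.13 for B2m, 1.31 for H2-D1 and 1.62 for H2-T23. WT cortex and WT hippocampus shared a plate that held no other group, so plate cannot be told apart from region and genotype here.

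B2m had 25 reads in the 12 blank wells, above the 3 reads taken as the floor. That came to 441 CPM of the blank reads, against 2100 to 6283 CPM in the sums of cells. A single other gene, Slc34a2, held 78.0% of the blank reads and lowers the CPM of every other gene there. The 2 scales are therefore not directly comparable.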

How the results depend on the processing

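Plates, small groups and the choice of tool limit these results: no plate held both genotypes of a region, 3 or 4 mice formed a group, and calls in cortex depended on the tool. Of the counts of members under other settings than leaving out a replicate, 160 stayed within 1.5 times and 28 moved. For 5xFAD against WT, the count of 4 in cortex was 0 under limma-voom, 0 in a limma-voom fit with the replicate number as a block and 1 with every cell weighted alike, and the count of 3 in hippocampus was 1 with every cell weighted alike. For WT hippocampus against WT cerebellum the count was 1 under limma-voom and 1 with cells weighted alike, and for WT cortex against WT cerebellum 1 and 2. For 5xFAD hippocampus against 5xFAD cerebellum it was 2 under limma-voom and 0 with only the groups compared, with the columns as deposited and with cells weighted alike, and for 5xFAD cortex against 5xFAD cerebellum 1 under DESeq2, limma-voom and no filter. The difference of effects gave 0 for hippocampus against cerebellum with cells weighted alike, and for cortex against cerebellum 0 with cells weighted alike and 1 under limma-voom, under the block and when the wells recovered by subtraction were left out. For hippocampus against cortex it gave 1 under DESeq2 and no filter. Without the filter, panel-positive cells gave 3 in cortex and 2 in hippocampus, and panel-negative cells 2 in hippocampus. Leaving out each replicate, the counts ran 3 to 4 in cortex, 3 to 4 in hippocampus, 0 to 0 in cerebellum, 0 to 1 for 5xFAD hippocampus against 5xFAD cerebellum, 3 to 4 for WT hippocampus against WT cerebellum, 4 to 4 for WT cortex against WT cerebellum, 2 to 4 and 1 to 3 for the differences of effects against cerebellum, and 0 to 0 for the panel count in cortex. Of log2 fold changes, 12 reversed under other settings and 8 on leaving out a replicate, none of a member that had passed. In cerebellum Tap2 (-0.04) was 0.029 without the filter, 0.12 as deposited, 0.0445 without the recovered wells, 0.0177 with cells alike and -0.15 to 0.15 over left-out replicates. Nlrc5 (-0.04) was 0.0158 without the filter, 0.16 without the recovered wells, 0.0139 under the stricter cell filter and -0.61 to 0.93 over left-out replicates. H2-D1 (0.17) was -0.0186 under limma-voom and -0.0183 under the block. Psmb9 (-0.09) was 0.18 without the recovered wells and -0.16 to 0.041 over left-out replicates, and Tapbp (-0.09) was 0.0269 with cells alike and -0.21 to 0.0383 over left-out replicates. In hippocampus Tap2 (-0.12) was 0.0152 as deposited and -0.37 to 0.0357 over left-out replicates. The causes were not tested. Same-numbered sums did not deviate together (21 pairs, correlations -0.04 to 0.03 over 6591 genes), so the numbers were not taken to pair the samples. That check does not show the sums to be independent. Since regions came from the same mice, the p-values between regions and for differences of effects rest on an assumption of independent sums. Under the block H2-T23 in hippocampus passed (adjusted p 0.039, limma). Depth limited shares of the scarce members: 47 of the shares moved by more than the replicate SD under other depths or read minimums and 253 did not.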
